A study of Rattus norvegicus with 12 samples.

Results

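Stratifin (Sfn) and 9 genes known from the transitional state of injured alveolar epithelium were followed in whole rat lung. The genes were listed by symbol, and 9 of the 10 listed had a row among the 32883 genes of the count table. Sox4 was not analysed here. Sfn was chosen by measured values, its low CPM in ferrostatin-1-treated against vehicle-treated lungs in earlier results of these same libraries, so its differences are given as a description and without a test. The other members were listed with those results known, and their difference between ferrostatin-1 and vehicle is likewise given without a test. Their tests against control lungs reuse the ferrostatin-1 or vehicle libraries, so those p-values are not independent of the listing.

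The 3 groups had 4 libraries each. MCT-Fer-1 were rats given monocrotaline and then ferrostatin-1 for 10 days, and MCT-vehicle were rats given monocrotaline and the vehicle of ferrostatin-1 for 10 days. Control were rats for which neither is stated. All were labelled WT, with a time of 25 days whose starting point is not given. The sources used here do not give strain, sex, age or doses. Monocrotaline, an alkaloid made by plants, damages lung vessels and serves to model pulmonary hypertension in rats, and ferrostatin-1 is an inhibitor of ferroptosis, the iron-dependent death of cells by oxidation of their membrane lipids. Monocrotaline and vehicle dosing cannot be told apart against Control. Whether every library stems from its own animal is not stated, so the p-values describe the spread between these samples, which may be technical. Library totals were 11601929 to 70627239 reads for MCT-Fer-1, 13654695 to 24016262 reads for MCT-vehicle and 16640022 to 18229992 reads for Control. Each of the 9 members passed the filter on low counts and had at least 34 reads in every library. Heart-muscle transcripts stood high in MCT-vehicle 2 (414 CPM summed over the list) and in Control 4 (262 CPM), against 17.3 to 80.5 CPM in the others.

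When alveolar epithelium is injured, type 2 cells, which make surfactant, divide and turn into type 1 cells, which line the gas exchange surface. In mice they pass through a transitional state marked by high levels of Krt8 and Cldn4, by Sfn and by p53 and TGF-beta target genes. Keratins of types I and II pair into the filaments of simple epithelia, Krt8 and Krt7 being type II chains and Krt18 and Krt19 type I chains. Areg, Ereg and Hbegf encode membrane-bound precursors that are cleaved to release ligands of the EGF receptor. Sfn encodes an epithelial member of the 14-3-3 family of phosphoprotein-binding adaptors and is a known p53 target in human cells.

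The sequences before the start site of Sfn and Areg are shown because these genes had the lowest ratios of MCT-Fer-1 to MCT-vehicle among the members, and that of Krt8 because it is the keratin that marks the transitional state. RefSeq promoter windows of build GRCr8 were matched by symbol for 5 members, Sfn, Krt8, Krt18, Areg and Hbegf, and the 250 bases before the start site were searched on both strands. The AP-1 motif was spelled TGANTCA and was present in 6.34% of 33469 such windows. The CRE motif, TGACGTCA, was present in 1.59%. The TATA box, TATAAA, was present in 12.9%. Capitals mark matches, and sequences run 5′ to 3′ on the strand of the gene.
Sfn, minus strand, chr5:151111855-151112104: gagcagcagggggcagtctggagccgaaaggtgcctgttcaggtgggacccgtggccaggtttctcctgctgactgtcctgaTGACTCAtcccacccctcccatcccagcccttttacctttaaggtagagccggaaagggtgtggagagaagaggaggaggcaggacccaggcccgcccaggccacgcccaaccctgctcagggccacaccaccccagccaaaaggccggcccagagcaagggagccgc
Areg, minus strand, chr14:17265642-17265891: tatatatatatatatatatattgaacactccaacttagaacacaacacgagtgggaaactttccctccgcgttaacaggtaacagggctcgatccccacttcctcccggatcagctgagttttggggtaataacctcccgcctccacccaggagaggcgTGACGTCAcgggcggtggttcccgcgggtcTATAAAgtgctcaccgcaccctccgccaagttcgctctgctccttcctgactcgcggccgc
Krt8, minus strand, chr7:135010340-135010589: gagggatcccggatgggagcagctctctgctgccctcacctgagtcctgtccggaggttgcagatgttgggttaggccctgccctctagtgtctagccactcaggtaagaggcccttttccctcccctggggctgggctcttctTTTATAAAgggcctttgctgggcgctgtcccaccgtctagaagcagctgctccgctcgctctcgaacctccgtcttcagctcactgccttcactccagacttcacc
Sfn held 1 AP-1 match, 168 to 162 bases before the start. Areg held 1 CRE match, 91 to 84 bases before the start, and 1 TATA match, 61 to 56 bases before it. In Krt8 TATA matches on the 2 strands overlapped, between 106 and 99 bases before the start. The windows of Krt18 and Hbegf held none of these letters. A match describes the sequence and shows no binding.

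**Figure D1:**
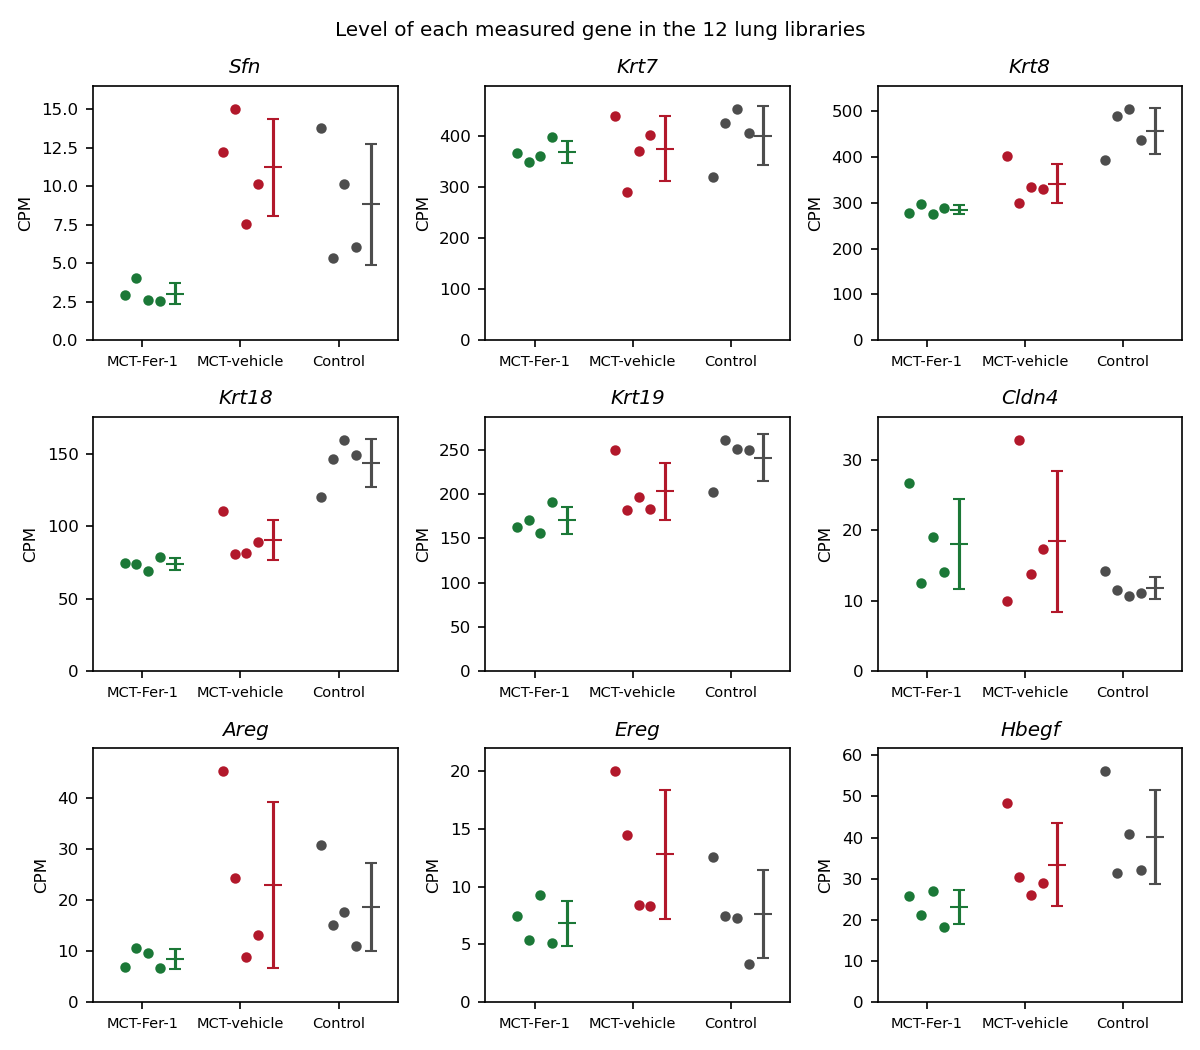
Each panel gives 1 gene; the y axis is CPM, reads per scaled library size, and starts at 0, points are the 4 libraries of MCT-Fer-1, MCT-vehicle and Control in the order of their replicate numbers, and bars beside them are the mean ± SD. The 4 MCT-Fer-1 libraries lie below all others for Sfn, Krt8 and Krt18, and the groups lie close together for Krt7.

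Levels are CPM, reads of a gene relative to the library size as scaled by edgeR's TMM method, and are compared between groups but not between genes, since they are not divided by gene length. In bulk lung, fewer cells of a type and less RNA per cell cannot be told apart. Sfn (ENSRNOG00000033153) stood at 2.93, 4.06, 2.61 and 2.59 CPM in MCT-Fer-1, at 12.2, 15.0, 7.53 and 10.1 CPM in MCT-vehicle and at 13.8, 5.37, 10.2 and 6.04 CPM in Control. Every MCT-Fer-1 library was below every library of the other groups, while MCT-vehicle and Control overlapped. Sfn averaged 3.05 ± 0.691 CPM in MCT-Fer-1 and 11.2 ± 3.17 CPM in MCT-vehicle (SD, n = 4 each), a log2 fold change of -1.89 ± 0.31 (SE), or 0.269 of the MCT-vehicle level. Against Control, which averaged 8.85 ± 3.93 CPM, the log2 fold change was -1.54 ± 0.31 in MCT-Fer-1 and 0.35 ± 0.30 in MCT-vehicle. The mean of MCT-Fer-1 was below both other means, not between them. Leaving out any 1 library kept the log2 fold change of MCT-Fer-1 over MCT-vehicle between -2.06 and -1.72.

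The keratins fell into 2 patterns. Krt8 and Krt18, partners in the same filaments, were lower in MCT-vehicle than in Control and lower again in MCT-Fer-1, and Krt19 was lower in MCT-Fer-1 than in Control, whereas Krt7 differed little. Krt8 (ENSRNOG00000009779) stood at 277, 297, 276 and 287 CPM in MCT-Fer-1, at 402, 299, 334 and 330 CPM in MCT-vehicle and at 393, 488, 503 and 436 CPM in Control. MCT-Fer-1 lay below both other groups, although its highest library and the lowest of MCT-vehicle were close, and MCT-vehicle 1 was above Control 1. Krt8 fell in MCT-vehicle against Control by 0.41 ± 0.10 on the log2 scale (edgeR adjusted p = 0.0106) and in MCT-Fer-1 against Control by 0.68 ± 0.10 (edgeR adjusted p = 8.16e-04), with all 4 libraries below every Control library in the second case. Between MCT-Fer-1 and MCT-vehicle its log2 fold change was -0.26 ± 0.10, and -0.18 without MCT-vehicle 1.

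Krt18 (ENSRNOG00000047393) stood at 74.8, 73.7, 69.0 and 78.9 CPM in MCT-Fer-1, at 111, 80.7, 81.7 and 89.1 CPM in MCT-vehicle and at 120, 147, 159 and 149 CPM in Control. No group overlapped another. The fall against Control was 0.66 ± 0.11 on the log2 scale in MCT-vehicle (edgeR adjusted p = 0.00129) and 0.95 ± 0.11 in MCT-Fer-1 (edgeR adjusted p = 1.76e-04), and the log2 fold change of MCT-Fer-1 over MCT-vehicle was -0.29 ± 0.11 (-0.18 without MCT-vehicle 1). Krt19 (ENSRNOG00000014233) stood at 163, 170, 157 and 191 CPM in MCT-Fer-1, at 250, 182, 197 and 183 CPM in MCT-vehicle and at 202, 261, 251 and 250 CPM in Control. MCT-Fer-1 lay below Control in every library and overlapped MCT-vehicle. Krt19 fell in MCT-Fer-1 against Control by 0.50 ± 0.11 (edgeR adjusted p = 0.0140), while MCT-vehicle against Control gave -0.25 ± 0.11 (edgeR adjusted p = 0.153), with adjusted p = 0.0255 without MCT-vehicle 1, which had the highest Krt19 of its group.

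Krt7 (ENSRNOG00000008057) stood at 365, 348, 361 and 397 CPM in MCT-Fer-1, at 437, 289, 370 and 402 CPM in MCT-vehicle and at 319, 424, 452 and 406 CPM in Control. All groups overlapped. Its log2 fold change was -0.12 ± 0.13 in MCT-Fer-1 against Control (edgeR adjusted p = 0.615), -0.09 ± 0.13 in MCT-vehicle against Control (edgeR adjusted p = 0.646) and -0.03 ± 0.13 in MCT-Fer-1 against MCT-vehicle. Ratios of counts within a library do not depend on the scaling of libraries. Krt7 counts were 4.71 to 5.23 times those of Krt18 in MCT-Fer-1, 3.58 to 4.53 times in MCT-vehicle and 2.65 to 2.89 times in Control, with no overlap between any groups. The ratio of Krt8 to Krt18 counts was 3.64 to 4.03 in MCT-Fer-1 and 3.63 to 4.09 in MCT-vehicle, both above the 2.93 to 3.33 of Control. The ratio of Krt19 to Krt18 counts was 2.18 to 2.42 in MCT-Fer-1, 2.06 to 2.41 in MCT-vehicle and 1.57 to 1.78 in Control. Krt18 was thus low relative to each of the other keratins in both monocrotaline groups; no test was made of the ratios. Reads that Krt8 and Krt18 share with processed copies elsewhere in the genome could shift these ratios, and how such reads were counted is not given in the sources used here.

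**Figure D2:**
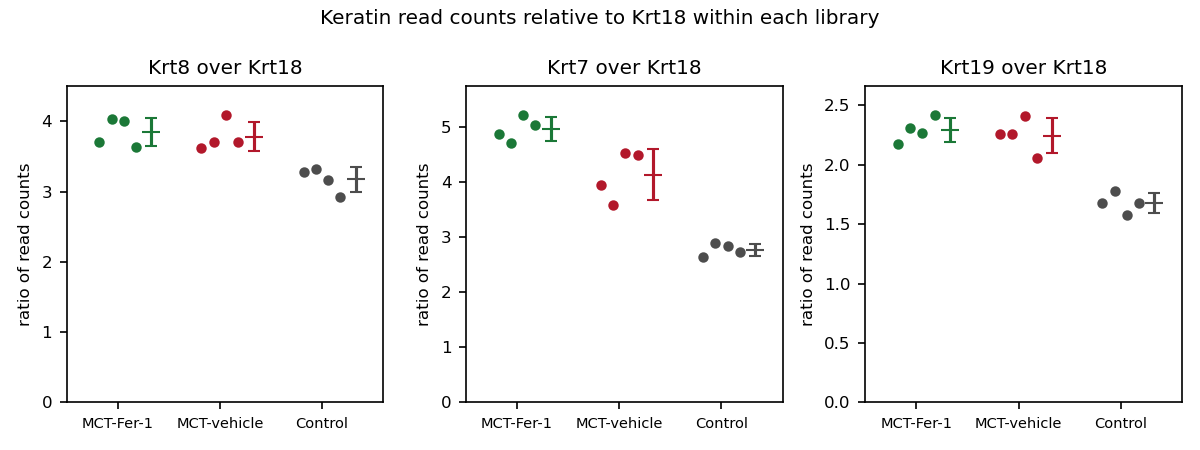
The y axis of each panel is the ratio of Krt8, Krt7 or Krt19 read counts to Krt18 read counts in the same library, from 0; points are libraries of MCT-Fer-1, MCT-vehicle and Control, and bars are mean ± SD. Both monocrotaline groups lie above Control in each panel, and for Krt7 MCT-Fer-1 also lies above MCT-vehicle.

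Cldn4 (ENSRNOG00000001476), a tight-junction claudin and a marker of the transitional state, was higher on average in both monocrotaline groups than in Control. It stood at 26.6, 12.5, 19.1 and 14.1 CPM in MCT-Fer-1, at 9.91, 32.8, 13.8 and 17.3 CPM in MCT-vehicle and at 14.2, 11.5, 10.7 and 11.1 CPM in Control. The monocrotaline groups spread widely and each overlapped Control. Its log2 fold change was 0.59 ± 0.33 in MCT-Fer-1 against Control (edgeR adjusted p = 0.304), 0.64 ± 0.34 in MCT-vehicle against Control (edgeR adjusted p = 0.212) and -0.04 ± 0.33 in MCT-Fer-1 against MCT-vehicle. MCT-vehicle 2, the highest, was also the library with most heart muscle and had 318 CPM of the airway secretory gene Scgb3a1 and 244 CPM of the airway mucin gene Muc5b, against 1.31 to 6.64 and 4.57 to 11.8 CPM in the other MCT-vehicle libraries; the part of these tissues in its Cldn4 was not tested. Without it the log2 fold change was 0.20 in MCT-vehicle against Control and 0.39 in MCT-Fer-1 against MCT-vehicle. Without MCT-Fer-1 1, the highest of its group, it was 0.36 in MCT-Fer-1 against Control and -0.28 in MCT-Fer-1 against MCT-vehicle.

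The 3 EGF receptor ligands were each lower on average in MCT-Fer-1 than in MCT-vehicle. Amphiregulin, Areg (ENSRNOG00000002754), stood at 6.89, 10.6, 9.64 and 6.74 CPM in MCT-Fer-1, at 45.2, 24.3, 8.87 and 13.2 CPM in MCT-vehicle and at 30.8, 15.1, 17.7 and 11.0 CPM in Control. MCT-Fer-1 lay below Control in every library but overlapped MCT-vehicle 3. The log2 fold change of MCT-Fer-1 was -1.45 ± 0.47 over MCT-vehicle (-0.88 without MCT-vehicle 1) and -1.14 ± 0.47 over Control, where it did not pass the threshold (edgeR adjusted p = 0.150; 0.0447 by DESeq2 and 0.0414 by edgeR on those groups alone). Without Control 1 the value over Control was -0.79, and its edgeR adjusted p reached up to 0.348 on leaving out 1 library. MCT-vehicle against Control gave 0.30 ± 0.45 (edgeR adjusted p = 0.685), and -0.26 without MCT-vehicle 1.

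Epiregulin, Ereg (ENSRNOG00000002771), stood at 7.50, 5.39, 9.27 and 5.09 CPM in MCT-Fer-1, at 20.0, 14.4, 8.43 and 8.30 CPM in MCT-vehicle and at 12.5, 7.42, 7.29 and 3.31 CPM in Control. All groups overlapped. Its log2 fold change was -0.92 ± 0.38 in MCT-Fer-1 over MCT-vehicle, -0.17 ± 0.38 in MCT-Fer-1 against Control (edgeR adjusted p = 0.828) and 0.75 ± 0.38 in MCT-vehicle against Control (edgeR adjusted p = 0.201). Heparin-binding EGF-like growth factor, Hbegf (ENSRNOG00000018646), stood at 25.9, 21.2, 27.0 and 18.3 CPM in MCT-Fer-1, at 48.4, 30.4, 26.1 and 28.9 CPM in MCT-vehicle and at 56.1, 31.4, 40.8 and 32.2 CPM in Control. MCT-Fer-1 lay below Control in every library and overlapped MCT-vehicle. Hbegf fell in MCT-Fer-1 against Control by 0.80 ± 0.23 on the log2 scale (edgeR adjusted p = 0.0421); the call was lost without Control 1, 3 or 4, without MCT-vehicle 2 or without any 1 MCT-Fer-1 library (adjusted p = 0.0515 to 0.110). MCT-vehicle against Control gave -0.26 ± 0.23 (edgeR adjusted p = 0.465), and MCT-Fer-1 over MCT-vehicle -0.54 ± 0.23 (-0.31 without MCT-vehicle 1).

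**Figure D3:**
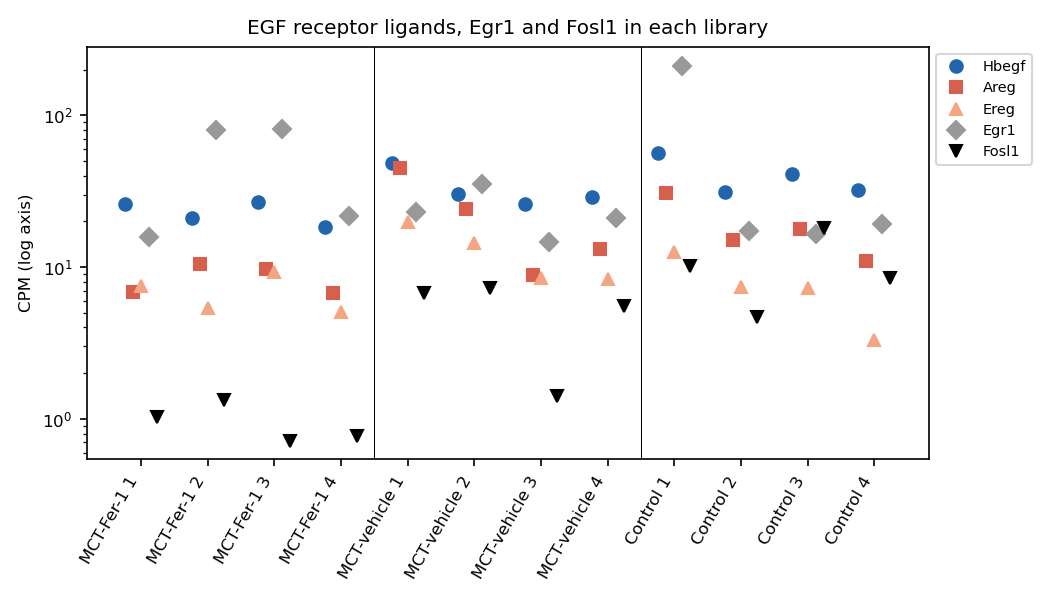
The y axis is CPM on a log scale and the x axis the 12 libraries, MCT-Fer-1, MCT-vehicle and Control from left to right. Symbols mark Hbegf, Areg, Ereg, the immediate early gene Egr1 and the AP-1 subunit gene Fosl1. MCT-vehicle 1 has the highest Areg and Ereg, Control 1 the highest Hbegf and Egr1, and the 4 MCT-Fer-1 libraries the lowest Fosl1.

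The ligand genes are known to be induced quickly by stimulation of cells, as immediate early genes are. Egr1, an immediate early transcription factor gene, stood at 15.7, 80.2, 80.9 and 21.7 CPM in MCT-Fer-1, at 23.2, 35.0, 14.5 and 21.2 CPM in MCT-vehicle and at 212, 17.2, 16.5 and 19.4 CPM in Control. Control 1 was thus high in Egr1, Hbegf, Areg, Ereg and Sfn together, and the part of this library state in the ligand levels was not tested. Fosl1, an AP-1 subunit gene, stood at 1.03, 1.34, 0.719 and 0.769 CPM in MCT-Fer-1, at 6.79, 7.30, 1.42 and 5.57 CPM in MCT-vehicle and at 10.2, 4.71, 18.1 and 8.52 CPM in Control. It fell in MCT-Fer-1 against Control by 3.45 ± 0.52 (edgeR adjusted p = 0.00131) and had a log2 fold change of -2.50 ± 0.51 over MCT-vehicle (edgeR adjusted p = 0.125).

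Counted over the members, MCT-Fer-1 had the lowest mean of the 3 groups in 8 of 9, the exception being Cldn4. In MCT-Fer-1 against MCT-vehicle 9 of 9 members had a log2 fold change below 0, as did 52.2% of the 15257 genes tested, with a median of -0.29 against -0.01 over all genes. The groups did not overlap, with MCT-Fer-1 lower, for 3 members, Sfn, Krt8 and Krt18, and for 3.00% of genes. No gene of the table passed the edgeR threshold of adjusted p below 0.05 in this comparison (0% called, smallest adjusted p = 0.114), 1835 genes had an unadjusted p below 0.05, DESeq2 called 237 genes and limma voom 0. On leaving out 1 library 7 to 9 members were below 0, Krt7 reaching 0.06 without MCT-vehicle 1 and Cldn4 0.39 without MCT-vehicle 2. Since the list was drawn up from this contrast, nothing is read from these counts.

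In MCT-vehicle against Control 2 of the 8 members other than Sfn fell and 0 rose, Krt8 and Krt18 being called, where 8.28% of all genes fell and 10.3% rose. Krt18 was the 1 member with MCT-vehicle lower in every library, as were 10.0% of genes. The median over the 9 members was -0.09, against 0.02 over all genes. In MCT-Fer-1 against Control 4 of these 8 fell and 0 rose, Krt8, Krt18, Krt19 and Hbegf, where 4.12% of all genes fell and 6.67% rose. The median was -0.68, against -0.00 over all genes, and 6 of 9 members did not overlap, with MCT-Fer-1 lower, as was the case for 8.54% of genes. Without MCT-vehicle 2 and Control 4, 3 of the 8 members fell in MCT-Fer-1 and 2 in MCT-vehicle. Both comparisons share the Control libraries, so these counts are not independent of each other. Those of MCT-Fer-1 against Control also use the MCT-Fer-1 libraries by which Sfn was chosen, and the median and the count without overlap include Sfn, so they are a description and are not read as a result about the list.

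**Figure D4:**
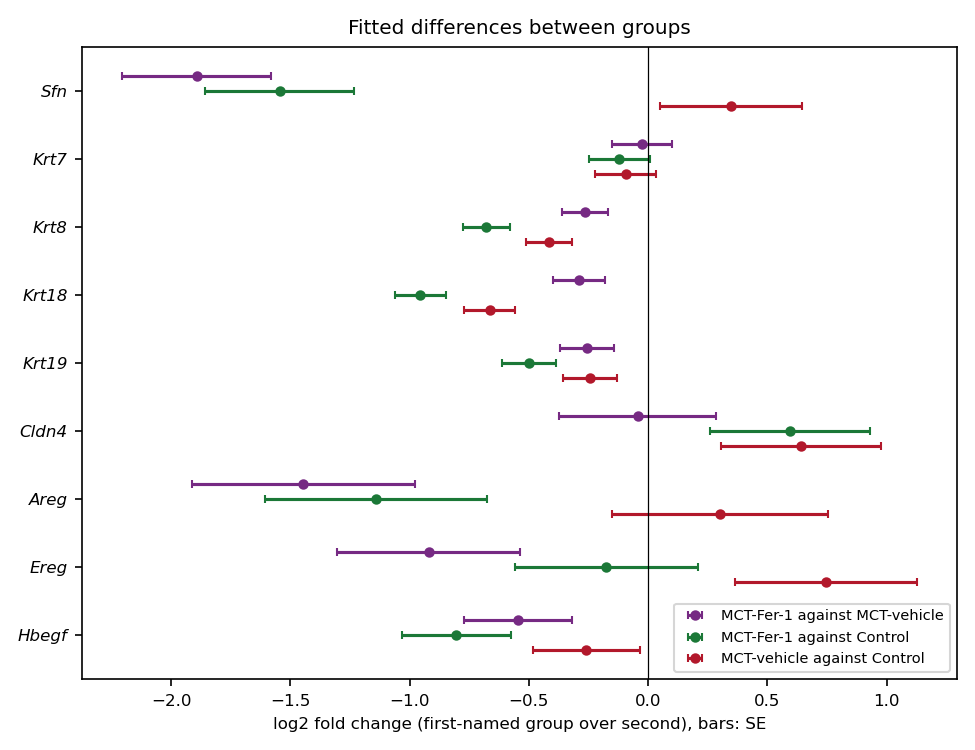
Points are log2 fold changes of the 9 genes and bars their SE from the edgeR fit, for MCT-Fer-1 against MCT-vehicle, MCT-Fer-1 against Control and MCT-vehicle against Control; values left of 0 are lower in the first-named group. Sfn and Areg have the lowest values for MCT-Fer-1, Krt18 and Krt8 are below 0 in each comparison, and Krt7 is near 0 in all 3.

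Likeness across the 12 libraries was taken as the root mean square difference of standardised log2 CPM, whose median over all genes was 1.35 for Krt8 and for Sfn. The gene most like Krt8 among the 15257 tested was Krt18 (0.206), then Krt19 (0.344) and the chemokine gene Cx3cl1 (0.396). Krt7 ranked 1583 by the same measure, and Cldn4 14380. The genes most like Sfn were Itpkc (0.383), an inositol trisphosphate kinase gene, Urb1 (0.392), a ribosome biogenesis gene, the thrombospondin gene Thbs1 (0.411), the latent TGF-beta binding protein gene Ltbp1 (0.427) and the transcriptional repressor gene Nfil3 (0.432). Among members Areg was closest to Sfn, at rank 47, followed by Hbegf at rank 146. Itpkc (0.317) and Ltbp1 (0.420) were also among the 3 genes most like Areg, with LOC100909712 (0.349). Those most like Cldn4 were AABR07060886.1 (0.359), the proline synthesis gene Pycr1 (0.402) and the collagen receptor gene Ddr2 (0.470). All these points share the same 12 libraries.

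Of 23 other genes of the transitional state tested, 8 rose and 0 fell in MCT-Fer-1 against Control, where 6.67% of all genes rose. In MCT-vehicle against Control 10 of the 23 rose and 0 fell, where 10.3% of all genes rose. The log2 fold change was below 0 in 9 in MCT-Fer-1 and in 2 in MCT-vehicle, with a median of 0.16 in MCT-Fer-1 and 0.38 in MCT-vehicle. The stress cytokine gene Gdf15 averaged 17.3 ± 6.59 CPM in MCT-Fer-1, 17.7 ± 2.59 CPM in MCT-vehicle and 2.93 ± 0.880 CPM in Control, and rose against Control by 2.56 ± 0.30 in MCT-Fer-1 (edgeR adjusted p = 2.41e-04) and by 2.59 ± 0.30 in MCT-vehicle (edgeR adjusted p = 1.81e-04). Mdm2, the ubiquitin ligase gene that limits p53, rose by 0.59 ± 0.10 in MCT-Fer-1 (edgeR adjusted p = 0.00308) and by 0.68 ± 0.10 in MCT-vehicle (edgeR adjusted p = 8.27e-04). Phlda3, a p53-induced inhibitor of AKT, rose by 0.96 ± 0.18 in MCT-Fer-1 (edgeR adjusted p = 0.00460) and by 1.17 ± 0.18 in MCT-vehicle (edgeR adjusted p = 9.58e-04). The tetraspanin-like gene Tm4sf1 rose by 1.37 ± 0.21 in MCT-vehicle (edgeR adjusted p = 0.00118) and the cyclin gene Ccnd1 by 0.74 ± 0.14 in MCT-Fer-1 (edgeR adjusted p = 0.00565). Each also lay above every Control library in the other monocrotaline group. Tm4sf1 stood at 39.4 to 74.0 CPM in MCT-Fer-1 and 21.9 to 31.3 CPM in Control. Ccnd1 stood at 484 to 680 CPM in MCT-vehicle and 278 to 424 CPM in Control. Without MCT-vehicle 2 and Control 4, 4 rose in MCT-Fer-1 and 6 in MCT-vehicle. Whole lung does not show which cells held these transcripts. Macrophage markers rose against Control in 8 of 12 in MCT-Fer-1 and 10 of 12 in MCT-vehicle, and 0 fell. The part of cells other than alveolar epithelium in the counts of the 23 genes was not tested.

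In MCT-Fer-1 against MCT-vehicle edgeR called 0 of these 23 genes, 6 had an unadjusted p below 0.05 and DESeq2 called 2, both lower. The log2 fold change was below 0 in 19, with a median of -0.20, where 52.2% of all genes were below 0 and their median was -0.01. The list was written with earlier results of these data known, so nothing is read from this count. The smallest p-values belonged to the tissue factor gene F3, at 197 ± 23.4 CPM in MCT-Fer-1 and 422 ± 178 CPM in MCT-vehicle (log2 fold change -1.10 ± 0.26, edgeR adjusted p = 0.192), and to the TWEAK receptor gene Tnfrsf12a, at 28.8 ± 6.19 CPM in MCT-Fer-1 and 56.8 ± 19.4 CPM in MCT-vehicle (-0.99 ± 0.25, edgeR adjusted p = 0.196). In both genes MCT-vehicle 3 was the lowest of its group, at 226 CPM for F3 and 31.7 CPM for Tnfrsf12a, as it was for Sfn and Areg.

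**Figure D5:**
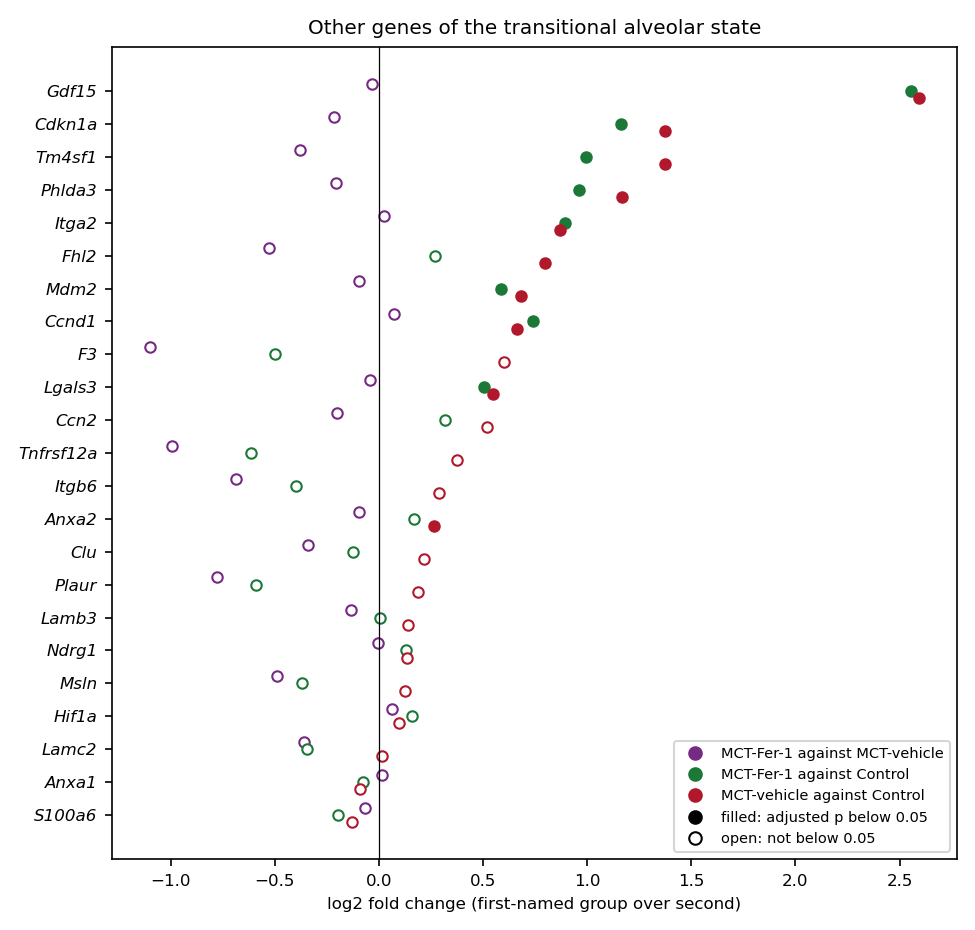
Points are log2 fold changes of the 23 other transitional-state genes in the edgeR fit, ordered by MCT-vehicle against Control, with the 3 comparisons in colours; filled points have an adjusted p below 0.05. Gdf15 and Cdkn1a are high against Control in both monocrotaline groups, and F3 and Tnfrsf12a are lowest in MCT-Fer-1 against MCT-vehicle.

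The p53 targets, of which Sfn is one in human cells, rose against Control in 12 of 18 tested in MCT-Fer-1 and in 13 of 18 in MCT-vehicle, and 0 fell in either. The medians were 0.91 in MCT-Fer-1 and 0.84 in MCT-vehicle. Over all genes tested 6.67% rose in MCT-Fer-1 and 10.3% in MCT-vehicle. The receptor gene Eda2r averaged 7.40 ± 1.28 CPM in MCT-Fer-1, 6.10 ± 1.89 CPM in MCT-vehicle and 0.302 ± 0.0612 CPM in Control, and rose by 4.59 ± 0.29 in MCT-Fer-1 (edgeR adjusted p = 1.27e-05) and by 4.32 ± 0.29 in MCT-vehicle (edgeR adjusted p = 8.60e-06). The apoptosis-enhancing nuclease gene Aen averaged 56.3 ± 6.31 CPM in MCT-Fer-1, 64.9 ± 11.7 CPM in MCT-vehicle and 20.5 ± 1.45 CPM in Control. The cyclin G1 gene Ccng1 averaged 269 ± 34.9 CPM in MCT-Fer-1, 255 ± 19.5 CPM in MCT-vehicle and 124 ± 12.8 CPM in Control, and both rose in both groups. Without MCT-vehicle 2 and Control 4, 11 of the 18 rose in each group. Cdkn1a, the gene of the cell cycle inhibitor p21, averaged 198 ± 49.96 CPM in MCT-Fer-1, 229 ± 40.4 CPM in MCT-vehicle and 88.5 ± 38.9 CPM in Control. Between MCT-Fer-1 and MCT-vehicle edgeR and DESeq2 each called 0 of 18, 1 had an unadjusted p below 0.05, and the median was 0.01. The smallest p-values there were those of Tp53inp1 (0.39 ± 0.13, edgeR adjusted p = 0.287) and the death receptor gene Fas (-0.26 ± 0.12, edgeR adjusted p = 0.430). Cdkn1a, Mdm2, Phlda3 and Gdf15 belong to both this list and the preceding one.

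The other members of the 14-3-3 family are widely expressed adaptors. Of 6 tested, edgeR called 0 in MCT-Fer-1 against MCT-vehicle (1 at unadjusted p below 0.05, 1 lower by DESeq2) and 0 in MCT-Fer-1 against Control (1 at unadjusted p below 0.05, 1 higher by DESeq2), and 2 rose in MCT-vehicle against Control, Ywhag by 0.32 ± 0.06 (edgeR adjusted p = 0.00369) and Ywhah by 0.29 ± 0.06 (edgeR adjusted p = 0.00773; 0.0586 without MCT-vehicle 2 and Control 4). Their median log2 fold change was -0.08 in MCT-Fer-1 against MCT-vehicle.

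Among EGF family ligands, receptors and shedding factors, 0 of 16 rose and 2 fell in MCT-Fer-1 against Control, and 1 rose and 3 fell in MCT-vehicle against Control. The shares of all genes were 6.67% higher and 4.12% lower in MCT-Fer-1, and 10.3% higher and 8.28% lower in MCT-vehicle. EdgeR and DESeq2 each called 0 of the 16 in MCT-Fer-1 against MCT-vehicle, and 3 of them had an unadjusted p below 0.05. The receptor gene Erbb2 fell in MCT-vehicle by 0.72 ± 0.15 (edgeR adjusted p = 0.00476) and the tetraspanin gene Cd9, which associates with the Hbegf precursor, by 0.41 ± 0.09 (edgeR adjusted p = 0.00576). Adam17, the protease that cleaves ligand precursors, rose in MCT-vehicle by 0.46 ± 0.10 (edgeR adjusted p = 0.00665). The 2 that fell in MCT-Fer-1 were Cd9 and Rhbdf1, a regulator of Adam17, and without MCT-vehicle 2 and Control 4 neither was called (edgeR adjusted p = 0.0629 and 0.121). Cd9 also lost its call without any 1 Control library (0.0602 to 0.112), without MCT-vehicle 2 or 3 (0.0506 to 0.0569) or without MCT-Fer-1 2, 3 or 4 (0.0919 to 0.122), and Rhbdf1 without Control 1, 3 or 4 (0.0756 to 0.107) or any 1 MCT-Fer-1 library (0.0511 to 0.109). The EGF receptor gene Egfr, chosen after its values were seen, averaged 17.7 ± 2.06 CPM in MCT-Fer-1, 18.4 ± 3.42 CPM in MCT-vehicle and 19.9 ± 1.96 CPM in Control and was not called.

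Of 16 genes induced by ERK signalling downstream of that receptor, 0 rose and 1 fell in MCT-Fer-1 against Control, and 1 rose and 1 fell in MCT-vehicle against Control. The shares of all genes were 6.67% higher and 4.12% lower in MCT-Fer-1, and 10.3% higher and 8.28% lower in MCT-vehicle. In MCT-Fer-1 against MCT-vehicle edgeR called 0 of these 16, 5 of them had an unadjusted p below 0.05, and DESeq2 called 1 higher and 1 lower. The genes called against Control were Fosl1 in the first case, and Spred3 (1.11 ± 0.27, edgeR adjusted p = 0.0132) and Etv5 (-0.99 ± 0.25, edgeR adjusted p = 0.0164) in the second. Without MCT-vehicle 2 and Control 4 neither Spred3 nor Etv5 was called (edgeR adjusted p = 0.0638 and 0.0845), while Fosl1 was.

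Relatives of the structural members were read against the 4.12% of all genes that fell in MCT-Fer-1 and the 8.28% that fell in MCT-vehicle. Of 10 other keratins 1 fell in MCT-Fer-1 against Control, Krt23 by 0.76 ± 0.20 (edgeR adjusted p = 0.0322), and 3 fell in MCT-vehicle against Control, Krt23, Krt1 and Krt4. In MCT-Fer-1 against Control 7 of these keratins had an unadjusted p below 0.05 and DESeq2 called 4 lower. Their log2 fold change there was below 0 in 9, with a median of -0.97. Their sums overlapped, at 153 to 182 CPM in MCT-Fer-1 and 150 to 172 CPM in Control. In MCT-vehicle against Control 6 were below 0, with a median of -0.44. Of 14 other claudins 2 fell in MCT-Fer-1 against Control, Cldn7 by 0.31 ± 0.08 (edgeR adjusted p = 0.0299) and Cldn3 by 0.75 ± 0.21 (edgeR adjusted p = 0.0403), and 1 fell in MCT-vehicle against Control, Cldn8 by 0.90 ± 0.18 (edgeR adjusted p = 0.00481). The call of Krt23 in MCT-Fer-1 was lost without any 1 Control library (edgeR adjusted p = 0.0546 to 0.0968) or without MCT-Fer-1 1, 2 or 3 (0.0694 to 0.0929). That of Cldn7 was lost without Control 1, 2 or 4 (0.0591 to 0.0822) or without MCT-Fer-1 2, 3 or 4 (0.0508 to 0.0826). That of Cldn3 was lost without any 1 Control library (0.0696 to 0.0959), without MCT-Fer-1 1, 2 or 3 (0.0818 to 0.0904) or without MCT-vehicle 2 or 4 (0.0503 to 0.0514). In MCT-vehicle, Krt1 was not called without Control 2 (0.0562), and Krt4 was not called without Control 2, 3 or 4 or MCT-vehicle 1, 2 or 4 (0.0555 to 0.105). In MCT-Fer-1 against MCT-vehicle edgeR called 0 of these keratins (1 at unadjusted p below 0.05, 0 by DESeq2) and 0 of these claudins (2 at unadjusted p below 0.05, 1 by DESeq2).

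Markers of lung epithelial cells were present in every library, and whole lung does not show which cells expressed the members. The shares of all genes called against Control were 6.67% higher and 4.12% lower in MCT-Fer-1, and 10.3% higher and 8.28% lower in MCT-vehicle. Alveolar type 2 markers, surfactant genes among them, summed to 44053 to 63904 CPM in MCT-Fer-1, 45085 to 67275 CPM in MCT-vehicle and 57599 to 63307 CPM in Control. Of 15, 1 rose and 0 fell in MCT-Fer-1 against Control and 1 rose and 1 fell in MCT-vehicle against Control. DESeq2 called 1 lower in MCT-Fer-1 and 4 lower in MCT-vehicle. Their log2 fold change was below 0 in 13 in MCT-Fer-1 (median -0.16) and in 9 in MCT-vehicle (median -0.09). The gene that rose in MCT-Fer-1, Ctsh, lost its call without Control 1, 2 or 4 or MCT-Fer-1 2, 3 or 4 (edgeR adjusted p = 0.0537 to 0.0797). Alveolar type 1 markers summed to 11918 to 16269 CPM in MCT-Fer-1, 10987 to 14428 CPM in MCT-vehicle and 12536 to 16261 CPM in Control, and of 15, edgeR and DESeq2 each called 0 in MCT-Fer-1 against Control (1 at unadjusted p below 0.05) and 2 fell in MCT-vehicle against Control. These were the caveolin gene Cav1, whose call was lost without Control 2, 3 or 4 or MCT-vehicle 2, 3 or 4 (edgeR adjusted p = 0.0704 to 0.0847), and Lmo7, whose call was lost without Control 2, 3 or 4 or MCT-vehicle 1, 2 or 4 (0.0533 to 0.0974). Endothelial markers fell in 5 of 10 in the same comparison and 0 rose, and the part of endothelium in the Cav1 value was not tested. General epithelial markers summed to 1376 to 1705 CPM in MCT-Fer-1, 1487 to 1691 CPM in MCT-vehicle and 1501 to 1812 CPM in Control. Of 15, 0 rose and 3 fell in MCT-Fer-1 against Control and 2 rose and 2 fell in MCT-vehicle against Control, and without MCT-vehicle 2 and Control 4 these counts were 0 and 1 in MCT-Fer-1 and 0 and 0 in MCT-vehicle. The log2 fold change of these markers was below 0 in 15 of 15 in MCT-Fer-1, with a median of -0.15, and in 13 of 15 in MCT-vehicle, with a median of -0.19, beside the lower Krt8, Krt18 and Krt19; their part in the keratin values was not tested. Those that rose in MCT-vehicle were Elf3 and St14, and those that fell were Esrp2 and Grhl2. None of them was called without MCT-vehicle 2 and Control 4. The epithelial transcription factor gene Elf3, chosen after its values were seen, averaged 42.4 ± 4.00 CPM in MCT-Fer-1, 71.8 ± 15.9 CPM in MCT-vehicle and 46.2 ± 7.56 CPM in Control. Its log2 fold change was 0.64 ± 0.15 in MCT-vehicle against Control and -0.76 ± 0.15 in MCT-Fer-1 over MCT-vehicle, given as a description.

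Markers of other epithelia that can hold these keratins or Sfn overlapped between the groups in their sums. Airway markers summed to 6259 to 10172 CPM in MCT-Fer-1, 5957 to 9501 CPM in MCT-vehicle and 8299 to 9620 CPM in Control, with 0 of 11 called by edgeR or DESeq2 in any comparison (3 at unadjusted p below 0.05 in MCT-Fer-1 against MCT-vehicle, 0 in the others), and 1 lower in MCT-vehicle against Control by edgeR without MCT-vehicle 2 and Control 4. Mesothelial markers summed to 201 to 362 CPM in MCT-Fer-1, 181 to 509 CPM in MCT-vehicle and 290 to 393 CPM in Control, with 0 of 7 called by edgeR or DESeq2 and 0 at unadjusted p below 0.05. Squamous markers summed to 24.05 to 36.8 CPM in MCT-Fer-1, 16.1 to 46.4 CPM in MCT-vehicle and 26.3 to 35.7 CPM in Control, and 1 of 6 fell in MCT-vehicle against Control, Krt4 by 1.44 ± 0.44 (edgeR adjusted p = 0.0376). Of all genes 8.28% fell in that comparison. In MCT-Fer-1 against Control edgeR called 0 of the 6, DESeq2 called 2 lower and 3 had an unadjusted p below 0.05. The squamous log2 fold changes were below 0 in 5 of 6 in MCT-Fer-1 (median -0.76) and in 4 in MCT-vehicle (median -0.65). Between MCT-Fer-1 and MCT-vehicle edgeR and DESeq2 each called 0 of the 6, and 0 had an unadjusted p below 0.05. The part of cell numbers in the members' levels was not tested.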

How the data were processed

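Raw read counts per gene were deposited by the authors for 12 libraries of whole rat lung RNA, per the file headers. The sources used here do not give aligner, counting tool, strand setting or genome build, so reads of overlapping or antisense genes cannot be told apart. Groups and replicate numbers came from the titles.

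Genes were kept by filterByExpr on the 3 groups, leaving 15257 of 32883 genes with 99.9% of the counts. Counts were scaled by TMM and fitted to all 12 libraries with edgeR's quasi-likelihood test (robust, leaving 9 residual degrees of freedom), with Benjamini-Hochberg adjustment over all genes tested and a threshold of 0.05. The SE was derived from the F statistic as the absolute log2 fold change over its square root. A floor of 3 counts corresponds to 0.0420 to 0.259 CPM and covers counting error only. Standardised log2 CPM used a prior count of 2. R 4.3.3, edgeR 4.0.16, limma 3.58.1, DESeq2 1.42.0, Python 3.11.15 and matplotlib 3.10.9 were used. The test was checked on simulated counts.

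The members, and 21 gene lists with 263 symbols (255 matched, 2 through another name, and 238 tested), were chosen with earlier results of these data known. Of each list described, up to 4 genes with the smallest p among those called were named, or the 2 with the smallest p where none was; not every gene so chosen is given, and Egr1, Scgb3a1, Muc5b, Egfr, Cdkn1a and Elf3 were named after their values were seen. Log2 CPM of libraries of a group correlated at r of 0.962 to 0.982, and every pair differed by more than sampling noise (chi-square per degree of freedom at least 10.3). Separate preparations from 1 lung could also differ in this way, so this does not show that the libraries stem from separate animals. Each library was taken as 1 replicate. Alternatives were other size factors, no filter, DESeq2, quality-weighted limma voom, a fit to the compared groups alone, a replicate block, and leaving out libraries.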

Additional observations from a re-analysis of the deposited data

Results flagged for a closer look

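The ratio of Krt8 to Krt18 counts in MCT-vehicle 3 was 4.09, set apart from the next highest of its group, 3.71, by more of the group's range than the Dixon limit for 4 samples allows. Of 36 such groups of 4 libraries 1 stood out, and chance alone flags about 1 in 20. The position of both monocrotaline groups above Control in this ratio does not rest on that library, since the lowest MCT-vehicle value was 3.63.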

How the results depend on the processing

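Genes called in MCT-Fer-1 against MCT-vehicle numbered 0 with edgeR, 237 with DESeq2, 1 when only those groups were fitted and 0 to 41 when 1 library was left out, the most without MCT-vehicle 3; 12 genes of the lists were called by DESeq2 and 0 to 3 with 1 library left out. Against Control, leaving out 1 library gave 977 to 1714 calls in MCT-Fer-1 and 2021 to 2860 in MCT-vehicle, and leaving out MCT-vehicle 2 and Control 4 together gave 978 in MCT-Fer-1 and 1675 in MCT-vehicle; the fits then have fewer samples. With a replicate block, 1676 genes were called in MCT-Fer-1 against Control (1646 without it), 0 in MCT-Fer-1 against MCT-vehicle (0 without it) and 2812 in MCT-vehicle against Control (2843 without it). Same-numbered libraries correlated at -0.06 to 0.10 after removal of group means, so the numbers were not taken as pairs. Calls of Krt8 and Krt18 against Control held in every alternative run in both monocrotaline groups. That of Krt19 in MCT-Fer-1 held as well, with edgeR adjusted p up to 0.0490 on leaving out 1 library. That of Hbegf in MCT-Fer-1 did not hold in 10 alternatives. All alternatives reuse libraries whose earlier results were known when the members were listed. The log2 fold change changed sign for genes without a call. It passed 0 for Krt7 and Cldn4 in MCT-Fer-1 against MCT-vehicle, where 7 to 9 members were below 0. It ran from -0.26 (without MCT-vehicle 1) to 0.66 for Areg and from -0.19 to 0.01 for Krt7 in MCT-vehicle against Control with 1 library left out (Krt7 0.015 without MCT-vehicle 2 and Control 4 and 0.011 without MCT-vehicle 2), and from -0.42 to 0.17 (without Control 1) for Ereg in MCT-Fer-1 against Control. The cause of these changes was not tested. Depth limits Sfn most, with 34 reads in the shallowest library.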

Other observations

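Of the other SOX genes and regulators linked to them, 1 rose and 5 fell of 12 in MCT-Fer-1 against Control, and 1 rose and 4 fell in MCT-vehicle against Control. The shares of all genes were 6.67% higher and 4.12% lower in MCT-Fer-1, and 10.3% higher and 8.28% lower in MCT-vehicle. In MCT-Fer-1 against MCT-vehicle 0 of the 12 were called by edgeR or DESeq2 (1 at unadjusted p below 0.05). Sox9, a transcription factor gene of distal lung progenitors, averaged 2.00 ± 0.896 CPM in MCT-Fer-1, 1.61 ± 0.577 CPM in MCT-vehicle and 5.86 ± 1.74 CPM in Control (SD, n = 4 each). It fell against Control by 1.53 ± 0.38 in MCT-Fer-1 (edgeR adjusted p = 0.0236; 0.0577 to 0.0662 without Control 2, 3 or 4) and by 1.87 ± 0.40 in MCT-vehicle (edgeR adjusted p = 0.00603). The endothelial factor gene Sox7 fell by 0.92 ± 0.16 in MCT-Fer-1 (edgeR adjusted p = 0.00341) and by 0.87 ± 0.16 in MCT-vehicle (edgeR adjusted p = 0.00318).

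Immune cells are a known source of EGF receptor ligands beside epithelium. Against Control 6.67% of all genes rose and 4.12% fell in MCT-Fer-1, and 10.3% rose and 8.28% fell in MCT-vehicle. Mast cell markers had 10 up and 1 down of 12 in MCT-Fer-1 against Control and 10 up and 2 down in MCT-vehicle against Control, and summed to 531 to 915 CPM in MCT-Fer-1, 459 to 1350 CPM in MCT-vehicle and 390 to 436 CPM in Control. Macrophage markers had 8 up of 12 in MCT-Fer-1 and 10 in MCT-vehicle, and 0 down, and markers of type 2 innate lymphoid and T cells 2 up and 1 down of 8 in each. Against Control edgeR called 0 of 8 neutrophil markers (2 at unadjusted p below 0.05 and 1 lower by DESeq2, all in MCT-vehicle) and 0 of 7 heart-muscle markers (1 at unadjusted p below 0.05, in MCT-Fer-1, and 0 by DESeq2; 1 higher in each monocrotaline group without MCT-vehicle 2 and Control 4). Endothelial markers had 3 down of 10 in MCT-Fer-1 and 5 in MCT-vehicle, and 0 up, and smooth muscle and fibroblast markers 1 up of 11 in MCT-Fer-1 and 4 in MCT-vehicle, and 0 down. In MCT-Fer-1 against MCT-vehicle edgeR called 0 of the 238 genes of all lists, 46 had an unadjusted p below 0.05 and DESeq2 called 12, among them 2 macrophage markers and 1 smooth muscle and fibroblast marker lower and 2 endothelial markers higher. MCT-vehicle 1, which had the highest Areg, had 743 CPM of mast cell markers, and MCT-vehicle 4, which had the highest mast cell sum, stood at 13.2 CPM of Areg; the part of these cells in the ligand levels was not tested.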
